A study of Mus musculus with 6 samples.

Results

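The genes described here form the bone morphogenetic protein (BMP) and transforming growth factor beta (TGF-beta) signalling system: its ligands, receptors, extracellular antagonists, Smad proteins, Id target genes and latent TGF-beta binding proteins. They were chosen by name from known pathway membership, with earlier results of these data known. All 46 named genes were measured, out of 22180 gene symbols in all, each by exactly 1 probe set annotated to that gene alone. RNA came from untreated mouse cells derived from NeuNDL tumours. NeuNDL is a constitutively active deletion mutant of the receptor tyrosine kinase Neu, or ErbB2, known for driving mammary tumours in mice. In 3 samples the cells were wild-type for SLK, a Ste20-like serine/threonine kinase, and in 3 they were SLK knockout; both groups carried NeuNDL and grew in the same serum-containing medium with a mammary epithelial growth supplement. The series names passages 9, 19 and 29, but no label ties a passage, a line or a clone to an array, and nothing given here says how the knockout was made. The p-values below therefore measure the spread between these samples, which may be technical.

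In this pathway secreted ligands bring together type I and type II receptor kinases on the cell surface, and the type I kinase then phosphorylates receptor-regulated Smads. BMPs act mainly through Smad1, Smad5 and Smad9, and TGF-betas and activins mainly through Smad2 and Smad3; both sets join Smad4 to regulate genes in the nucleus. Secreted antagonists bind the ligands outside the cell, and Smad6 and Smad7 feed back on the receptors. In mammary epithelium TGF-beta is known for restraining growth in normal cells and for promoting mesenchymal traits in tumour cells, and Id proteins, which block basic helix-loop-helix transcription factors, are known BMP targets.

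Signals were taken as log2 values, so that a difference of 1 is a 2-fold change, and array medians lay between 3.93 and 3.97. Slk, the targeted gene, read 8.21, 8.30 and 8.34 on wild-type arrays 1 to 3 and 7.14, 7.21 and 7.20 on knockout arrays 1 to 3. It was lower on every knockout array, with a log2 difference of -1.10 (SE 0.06; limma, adjusted p = 0.0021). The cells carried epithelial keratin signal, with Krt8 between 10.30 and 10.50 and Krt18 between 10.46 and 10.65 on all arrays. Of 8 epithelial markers 2, Krt19 and Cldn7, had mean signals over all arrays below the median gene's 4.39. Among the luminal regulators Gata3 read 8.61 to 8.84, and Elf5, Foxa1 and Pgr had mean signals below the median gene. Fibroblast markers also gave signal: Pdgfra read 7.58 to 7.75, Pdgfrb 6.63 to 7.36 and Dcn 6.06 to 6.67. Of 12 such markers 4 had mean signals below the median gene. A gene with a low signal may still be transcribed, since presence was not called, and signals of different genes come from different probes and give no order of abundance.

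Ligands, antagonists and Id targets each held a gene that was lower in SLK-knockout cells: Bmp4, Chrdl1 and Id4. These genes fell 1.45-fold, 1.43-fold and 1.36-fold. No gene of the 46 rose past the threshold, and neither did any receptor, Smad or latent TGF-beta binding protein in either direction. The count was thus 3 of 46 genes, or 6.52%, past an adjusted p of 0.05 in limma's test over all genes. Of all genes tested 0.437% passed, and for falls alone the background was 0.113%. The 46 genes were brighter than most, since 9 of them were below the median gene, against 11090 of all 22180. Without the dimmest 50% of genes, 341 of 11090 genes passed, 139 of them falls, against the same 3 of 37 signalling genes. Leaving out any of the 6 arrays left none of the 3 past the threshold, with adjusted p between 0.072 and 0.18, while the differences kept their sign. All 3 also lost the call when all 41345 probe sets were tested at once.

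The sequences just upstream of Bmp4, of Id4 and of a second Id gene, Id3, are shown because Bmp4 and Id4 fell together and Id3, of the same family, did not pass. Each is the 250 bases before the annotated start, 5′ to 3′ on the gene's own strand, from RefSeq on GRCm38.p6: chr14:46390670-46390919, minus strand, for Bmp4, chr13:48260866-48261115, plus strand, for Id4, and chr4:136143572-136143821, plus strand, for Id3. Capitals mark any match, on either strand, to GTCT (the core Smad-binding element), GGCGCC (a GC-rich element bound by Smads of the BMP branch) or CAGACA (part of the CAGA box, which contains the reverse complement of GTCT).
Bmp4: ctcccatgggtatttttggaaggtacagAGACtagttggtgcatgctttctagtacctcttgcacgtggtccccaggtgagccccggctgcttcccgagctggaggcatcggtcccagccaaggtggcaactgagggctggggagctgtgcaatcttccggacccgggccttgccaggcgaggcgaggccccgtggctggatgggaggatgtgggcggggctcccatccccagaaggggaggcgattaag
Id4: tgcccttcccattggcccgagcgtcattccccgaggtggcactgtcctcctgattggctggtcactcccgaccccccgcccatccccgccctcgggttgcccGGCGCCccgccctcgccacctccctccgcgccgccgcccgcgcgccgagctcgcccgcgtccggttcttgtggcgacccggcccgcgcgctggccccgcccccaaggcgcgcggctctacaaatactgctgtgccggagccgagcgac
Id3: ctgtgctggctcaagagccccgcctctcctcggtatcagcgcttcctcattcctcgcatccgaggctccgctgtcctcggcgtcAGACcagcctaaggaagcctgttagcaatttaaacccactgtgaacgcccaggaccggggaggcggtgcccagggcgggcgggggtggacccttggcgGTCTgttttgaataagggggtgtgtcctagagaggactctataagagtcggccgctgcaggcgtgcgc
The Bmp4 window held 1 GTCT match, the Id3 window held 2, and the Id4 window held 1 GGCGCC match and no GTCT. Upstream windows were found for 32 of the 46 genes, 40 windows in all; Chrdl1 was among those without an entry. GTCT occurred in 85% of these windows against 82.9% of all 32851 RefSeq windows of that length, CAGACA in 15% against 17.1%, and GGCGCC in 27.5% against 9.59%. GGCGCC is made of G and C alone, and the GC content of these windows was not compared with that of all windows. Some genes had several windows, and overlapping ones were counted separately. A match describes the letters only and is not evidence of binding.

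Among the BMP ligands, Bmp4, a signal of embryonic patterning that is also made by the mesenchyme of many organs, read 6.76, 6.83 and 6.75 on the wild-type arrays and 6.25, 6.34 and 6.17 on the knockout arrays. The highest knockout value lay well below the lowest wild-type value. The log2 difference was -0.53 (SE 0.06; limma, adjusted p = 0.029), from 6.78 ± 0.04 to 6.25 ± 0.09 (SD, n = 3 each). The other 5 BMP ligand genes did not pass. Bmp3, a BMP known for opposing bone formation, read 3.96, 3.68 and 3.69 in wild-type cells and 4.01, 4.07 and 3.87 in knockout cells, and its groups overlapped (log2 0.21, SE 0.10, adjusted p = 0.53). Bmp2, Bmp5, Bmp6 and Bmp7 had log2 differences between -0.04 and 0.07. Bmp2, Bmp3, Bmp5 and Bmp6 were dim, below the median gene, and Bmp7 had the widest 95% interval of the 46 genes, from -0.34 to 0.48.

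The genes of the 3 TGF-betas had slightly higher means in knockout cells, and none passed. Tgfb1, the main TGF-beta of most tissues, read 7.36, 7.27 and 7.26 in wild-type cells against 7.52, 7.32 and 7.47 in knockout cells. Tgfb2 read 5.65, 5.44 and 5.52 against 5.75, 5.65 and 5.62. For both genes the groups overlapped, with a log2 difference of 0.14 (SE 0.07, adjusted p = 0.57). Tgfb3 had a log2 difference of 0.07 (SE 0.08). Inhba, which encodes the beta A subunit of activins and inhibins, read 7.16, 7.14 and 7.17 against 7.18, 7.0 and 7.17, and Inhbb had a log2 difference of -0.02. The intervals for Inhba (-0.19 to 0.11) and Inhbb (-0.19 to 0.14) hold no difference as large as that of Bmp4.

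Receptor genes differed little between the genotypes, and none of the 12 receptor and co-receptor genes passed. Bmpr1a, a type I receptor for BMPs, read 7.88, 7.85 and 7.86 on wild-type arrays and 7.77 on each knockout array. Its arrays did not overlap, but the difference was only -0.09 (SE 0.045, adjusted p = 0.55). Acvr1b, the activin type I receptor, read 5.73, 5.41 and 5.46 against 5.73, 5.82 and 5.65, and wild-type array 1 stood with the knockout arrays (log2 0.20, SE 0.10, adjusted p = 0.55). Acvrl1, a type I receptor best known from endothelium, read 3.86, 3.95 and 3.87 against 4.05, 4.02 and 3.95, a difference of 0.11 (SE 0.05) at a dim signal. Of 11 endothelial markers 10 were below the median gene and none passed, with summed linear signals of 132 to 144 in wild-type and 135 to 145 in knockout cells.

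Bmpr2, the BMP type II receptor, read 10.39, 10.38 and 10.33 in wild-type and 10.35, 10.36 and 10.24 in knockout cells, and these overlapped. Another probe set, shared by Bmpr2 and Gm20272 and so outside the main set, had a log2 difference of -0.09 (SE 0.09). Tgfbr2, the TGF-beta type II receptor, was lower on every knockout array by a small margin (log2 -0.10, SE 0.05, adjusted p = 0.59), and Tgfbr1, its type I partner, had -0.12 (SE 0.07). Tgfbr3, the co-receptor betaglycan, read 6.72, 6.57 and 6.69 against 6.64, 6.64 and 6.67. Acvr1, Acvr2a, Acvr2b, Bmpr1b and the endoglin gene Eng had differences between -0.08 and 0.06. The 95% intervals of all 12 lay within 0.5 log2 units of 0.

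The antagonist genes held both the smallest p of the 46 and the largest rise. Chrdl1, which encodes chordin-like 1, a secreted protein that binds BMP4 and other BMPs, read 5.88, 5.76 and 5.81 in wild-type cells and 5.31, 5.26 and 5.33 in knockout cells. The groups were far apart for the spread within them. The log2 difference was -0.52 (SE 0.05; limma, adjusted p = 0.022). Bambi, a decoy receptor that lacks a kinase domain, read 4.77, 4.83 and 4.92 against 5.25, 5.25 and 4.95. Its arrays did not overlap, though knockout array 3 lay just above the wild-type range. It had the largest difference above 0, 0.31 (SE 0.10), without passing (adjusted p = 0.33).

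Chrd, the gene for chordin itself, read 5.78, 5.65 and 5.52 against 5.51, 5.49 and 5.40, a difference of -0.18 (SE 0.08, adjusted p = 0.50), and the lowest wild-type value all but met the highest knockout value. Fstl3, a follistatin-like binder of activin, read 8.93, 8.91 and 8.92 against 8.95, 9.03 and 8.88, which overlapped. Fst (follistatin), the BMP antagonist noggin (Nog) and the BMP antagonist gremlin 1 (Grem1) had differences of -0.04, -0.06 and 0.22. Grem1 and Nog were dim, and the interval for Grem1 reached from -0.11 to 0.55.

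**Figure D1:**
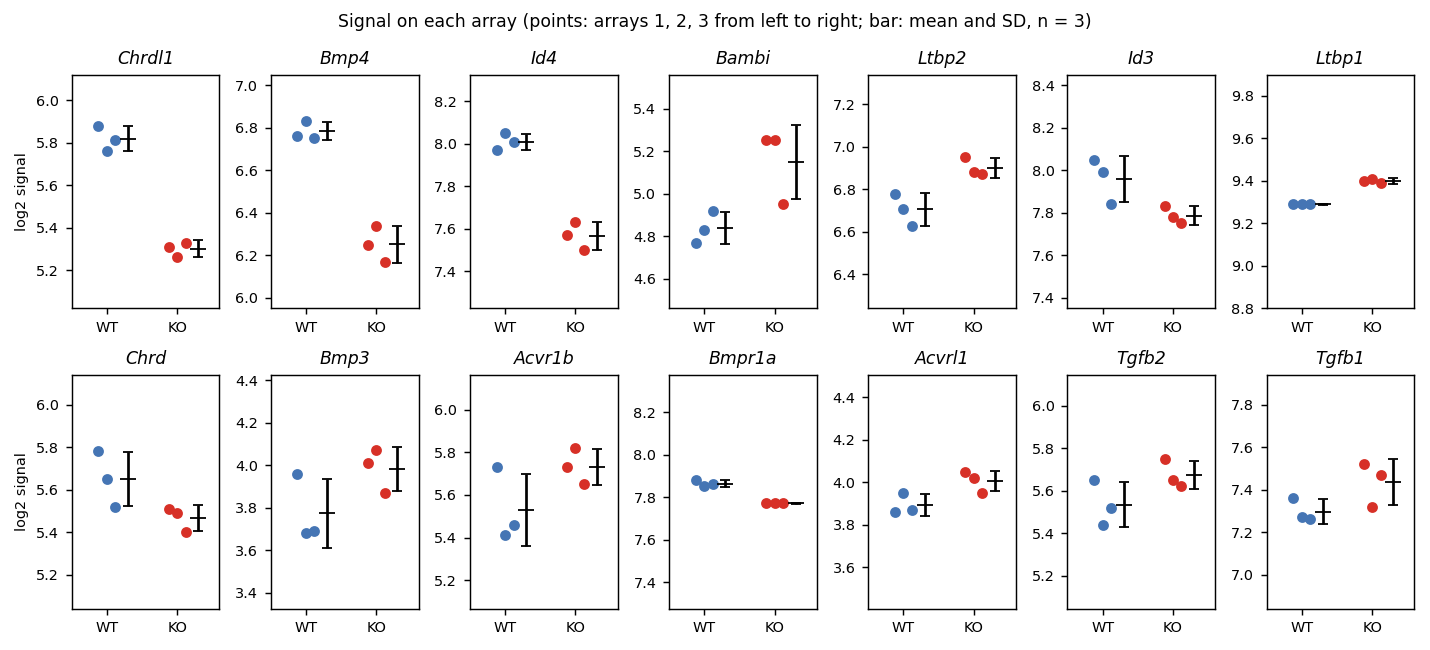
Log2 signal of the 14 genes with the smallest p on each array, in order of p, for SLK wild-type (WT, blue) and knockout (KO, red) cells; points are arrays and bars are the mean and SD of 3 arrays, and every panel spans the same height. The knockout arrays of Chrdl1, Bmp4 and Id4 all lie below every wild-type array with a wide gap, and the other 11 genes have narrow gaps or overlap.

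The Smad genes, which carry the signal to the nucleus, did not pass in either direction. Smad2, of the TGF-beta branch, read 8.64, 8.63 and 8.62 against 8.66, 8.76 and 8.68. Smad4, the shared partner, read 9.45, 9.43 and 9.44 against 9.37, 9.52 and 9.46. Smad7, the inhibitory Smad of both branches, read 8.39, 8.39 and 8.51 against 8.42, 8.41 and 8.38. Only Smad2 of the 8 Smads had arrays that did not overlap, beside 16.9% of all genes. Its difference was 0.07 (SE 0.05; limma, adjusted p = 0.72). Smad1, Smad5 and Smad9 of the BMP branch had -0.05, -0.02 and 0.02, Smad3 had 0.12 (SE 0.08) and the inhibitory Smad6, itself a BMP target, had -0.15 (SE 0.10, adjusted p = 0.66). All 8 intervals lay within 0.5 log2 units of 0, with that of Smad4 from -0.13 to 0.14.

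All 4 Id genes had lower means in knockout cells, also after quantile normalization and after median centring, but only Id4 passed. Id4, which marks basal mammary cells, read 7.97, 8.05 and 8.01 in wild-type and 7.57, 7.63 and 7.50 in knockout cells. The arrays were cleanly separated, with a log2 difference of -0.44 (SE 0.06; limma, adjusted p = 0.038). Id3 read 8.05, 7.99 and 7.84 against 7.83, 7.78 and 7.75, so that wild-type array 3 and knockout array 1 were almost level (log2 -0.17, SE 0.07, adjusted p = 0.46). Id2 read 8.61, 8.50 and 8.43 against 8.51, 8.37 and 8.46 and overlapped. Id1, often used as a readout of BMP signalling, had -0.08 with an interval from -0.27 to 0.10. Whether the difference of Id4 was larger than those of the other Id genes was not tested.

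Latent TGF-beta binding proteins hold TGF-beta in the extracellular matrix, and their genes had small differences that did not pass. Ltbp1 read 9.29 on each wild-type array and 9.40, 9.41 and 9.39 on the knockout arrays. This was a difference of 0.11 (SE 0.045, adjusted p = 0.48) with tightly grouped arrays. Ltbp2, a matrix protein of the same family that is known not to bind latent TGF-beta, read 6.78, 6.71 and 6.63 against 6.95, 6.88 and 6.87, a difference of 0.19 (SE 0.06, adjusted p = 0.34). Its knockout arrays were all higher, but a dimmer probe set shared by Ltbp2 and D030025P21Rik, outside the main set, had 0.02 (SE 0.09). Ltbp3 and Ltbp4 had 0.04 and -0.03.

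**Figure D2:**
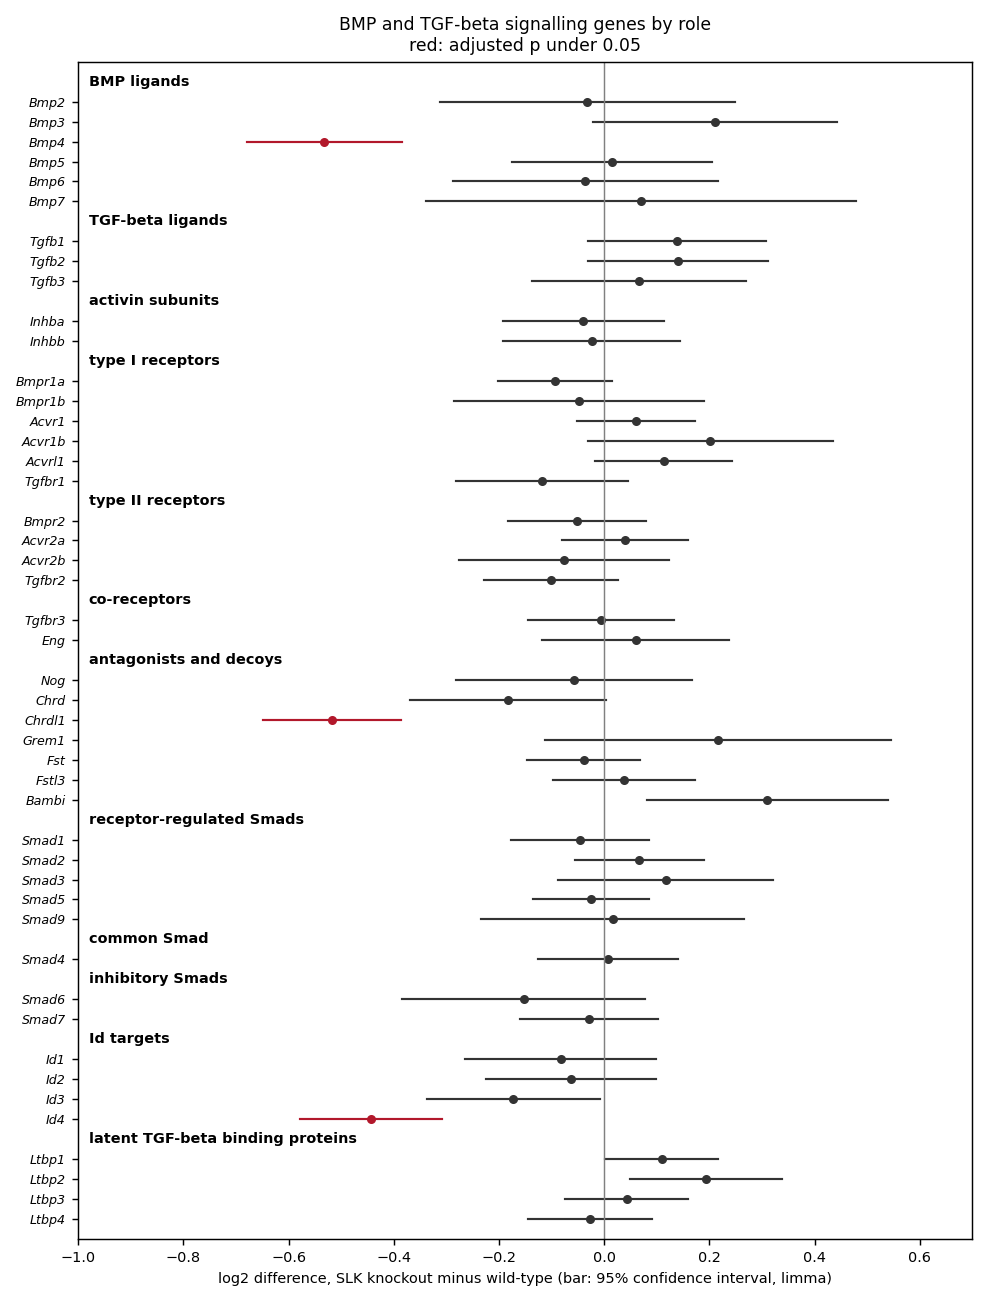
Log2 difference, SLK knockout minus wild-type, of each of the 46 genes, grouped by role; points are limma's estimates from 3 arrays per group, bars are 95% confidence intervals, and red marks an adjusted p under 0.05. Bmp4 (-0.53), Chrdl1 (-0.52) and Id4 (-0.44) stand to the left of the other 43 genes, whose points lie between -0.18 and 0.31.

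As a list, the 46 genes had a median log2 difference of -0.02, against 0.00 for all genes tested, with 21 means higher and 25 lower. An unadjusted p under 0.05 was found for 7 of them (15.2%, against 10.2% of all genes): 3 were higher (6.52%, against 5.75%) and 4 lower (8.70%, against 4.47%). Arrays of the genotypes did not overlap for 13 (28.3%, against 16.9%): 5 were higher (10.9%, against 8.79%) and 8 lower (17.4%, against 8.10%). Without the dimmest 50% of genes, limma's unadjusted p was under 0.05 for 9 of 37 signalling genes and 1913 of 11090 genes. For 41 of the 46 the 95% interval lay within 0.5 log2 units of 0. The 5 others were Bmp4, Chrdl1, Id4, Bambi and Grem1.

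**Figure D3:**
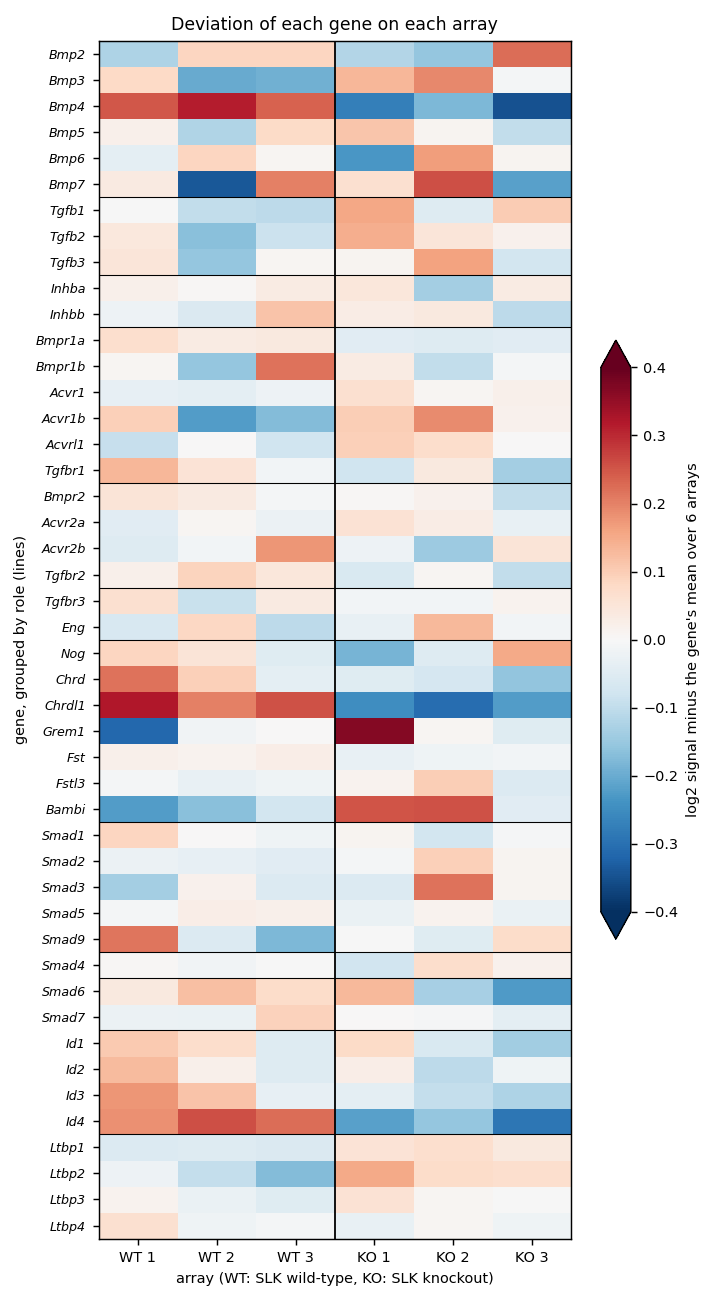
Log2 signal of each of the 46 genes on each array minus that gene's mean over the 6 arrays, in order of role; red is above and blue below the mean, and colours end at 0.4. The Bmp4, Chrdl1 and Id4 lines change from red on all 3 wild-type arrays to blue on all 3 knockout arrays, while most other lines mix both colours within a genotype.

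Other genes of the pathway, in 8 lists of 164 genes of which 152 were measured, held 1 call, or 0.658% against 0.437% of all genes. It was Tgfbi, a secreted matrix protein induced by TGF-beta, which rose among 29 measured TGF-beta target genes. Tgfbi read 6.83, 6.75 and 6.63 in wild-type and 7.36, 7.22 and 7.30 in knockout cells, without overlap (log2 0.55, SE 0.07; limma, adjusted p = 0.038). The next target genes were the protease gene Mmp9 (0.60, adjusted p = 0.054) and the smooth muscle actin gene Acta2 (-0.47, adjusted p = 0.055), on opposite sides of 0. Median centring moved Tgfbi below and Acta2 past the threshold, and without any of the 6 arrays no gene of these lists passed. In that list 15 means were higher and 14 lower, with a median of 0.01.

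None of 16 measured BMP target genes passed, over a median of 0.07. The homeobox gene Dlx2 had 0.27 (SE 0.05, adjusted p = 0.097), Gata3, a luminal regulator, -0.20 and Atoh8, a helix-loop-helix factor, -0.21. Among 20 other ligands of the superfamily the leading genes were Inhbe (0.38, adjusted p = 0.12), Nodal (0.39, adjusted p = 0.13) and Lefty2, an antagonist of Nodal (0.18), and none passed; all 3 were dim, below the median gene in both genotypes. Of 11 other receptors and co-receptors, Nrp1 (-0.19), Cd109 (-0.19) and Nrp2 (-0.17) led, none past the threshold. Of 16 other secreted inhibitors the decorin gene Dcn had 0.43 (adjusted p = 0.10), Fstl1 -0.32 and the biglycan gene Bgn 0.18.

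Ligand activation and the signal's handling inside the cell held no call. Of 15 genes that mature or release ligands, Tll1, a protease of the BMP1 family that cleaves chordin, had 0.56 (SE 0.11, adjusted p = 0.11), the integrin gene Itgb8 -0.24 and Itgb3 0.21. The 26 Smad cofactors and regulators spanned only -0.12 to 0.15, led by Runx1 (-0.12), Foxh1 (0.15) and Lemd3 (-0.10). The 19 genes of the Smad-independent branch spanned -0.23 to 0.09, led by Pard6a (-0.23), the JNK gene Mapk8 (-0.10) and Limk1 (0.09). Together the 152 genes had a median of -0.01 and 35 unadjusted p under 0.05 in limma (23%, against 10.2% of all genes). Of these, 17 were higher (11.2%, against 5.75%) and 18 lower (11.8%, against 4.47%). These lists too were brighter than most genes, with 51 of the 152 below the median gene. Without the dimmest 50% of genes the counts were 32 of 101 in the lists and 1913 of 11090 in all.

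**Figure D4:**
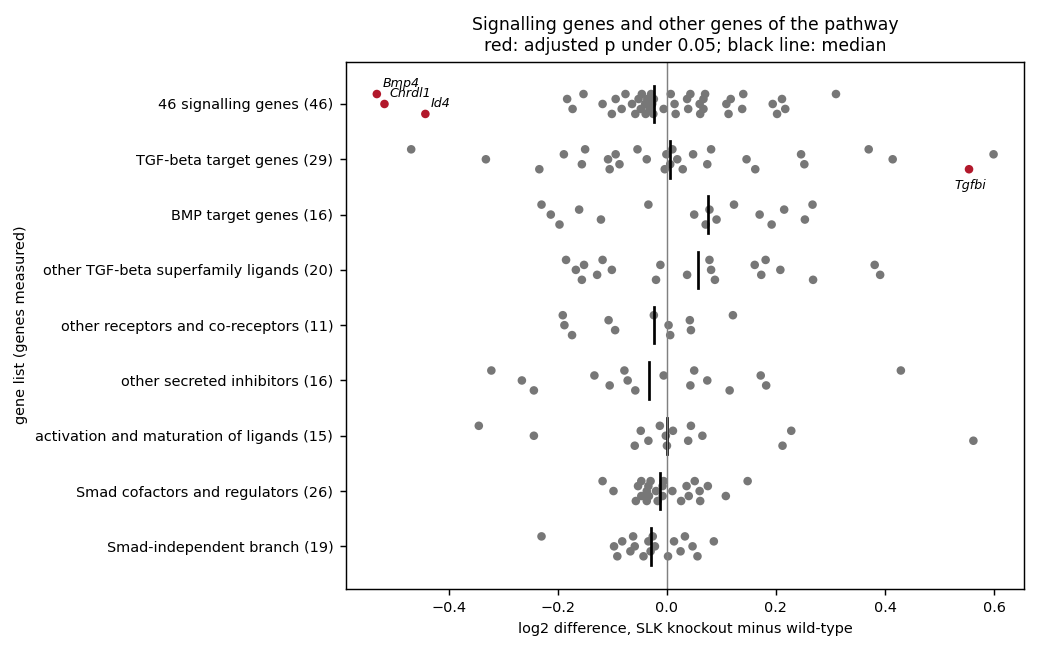
Log2 difference, SLK knockout minus wild-type, of the 46 signalling genes and of 8 lists of other pathway genes; each point is a gene, black lines are medians, red marks an adjusted p under 0.05, and counts of measured genes stand in brackets. Bmp4, Chrdl1 and Id4 are red on the left, Tgfbi (0.55) is red on the right, and every median lies between -0.03 and 0.07.

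Markers of other cell types were mixed between the genotypes, and their summed linear signals rested on a few bright genes, which were singled out after their values were seen. Of 8 measured basal and myoepithelial markers, among which Id4 was not counted, Krt14 fell (log2 -0.66, adjusted p = 0.0096) and none rose past the threshold. Acta2 was lower on every knockout array (-0.47, adjusted p = 0.055) and Mylk, a myosin kinase gene, higher on every one (0.42, adjusted p = 0.20), and the list's median was -0.09. Its summed signal was 647 to 650 in wild-type and 456 to 484 in knockout cells, but 92 to 110 and 97 to 111, which overlapped, without Krt14 and Acta2. Trp63, Krt17, Cnn1 and Oxtr were dim in both genotypes.

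Of 12 fibroblast markers Pdgfrb fell (-0.67; limma, adjusted p = 0.0066) and none rose past the threshold. The list went both ways. Dcn (0.43, adjusted p = 0.10 in limma), Postn (0.37, adjusted p = 0.11) and Pdgfra (0.099) were higher on every knockout array. The collagen genes Col1a1 (-0.33, adjusted p = 0.24), Col1a2 (-0.189) and Col3a1 (-0.187) were lower on every one. The summed signal was 817 to 862 in wild-type and 800 to 824 in knockout cells, which overlapped. Lum, Dpt, Fap and Thy1 were dim in both genotypes, and the other fibroblast markers had means above the median gene in both.

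Of 8 epithelial markers Cdh1 fell (-0.42, adjusted p = 0.022), and Epcam (-0.35, adjusted p = 0.083) and Cldn7 (-0.48, adjusted p = 0.11) were lower on every knockout array. Krt8 (0.146), Krt18 (0.135), Cldn3 (0.133) and the dim Krt19 (0.076) were higher on every knockout array without passing. Means went 4 each way, with a median of -0.015. The summed epithelial signal was higher in knockout cells, 3640 to 3708 against 3458 to 3530, because of the bright keratin genes Krt8 and Krt18. Without these keratins it was lower, 674 to 697 against 778 to 788. The 9 luminal markers share these keratins, and none passed. Their sum was 3427 to 3472 against 3201 to 3257 with the keratins, and 454 to 467 against 515 to 523 without them. Gata3 (-0.197) was the only gene above the median gene left in the smaller sum. Of the luminal means 6 were higher and 3 lower, with a median of 0.076. Of 7 adipocyte markers Fabp4 rose (0.92, adjusted p = 0.029) and the other 6 were dim, with Cidec lower on every knockout array (-0.31, adjusted p = 0.14). The adipocyte sum was 204 to 215 in knockout and 133 to 153 in wild-type cells, but 61 to 74 and 65 to 68 without Fabp4.

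Of 10 leukocyte markers none passed and 8 were dim. Means were higher in knockout cells for 8 and lower for 2, with Tyrobp (0.29), Fcer1g (0.26) and Cd14 (0.17) higher on every knockout array. The leukocyte sum was 469 to 498 in wild-type and 505 to 544 in knockout cells. Only Cd14 and Cd68 in it were above the median gene. None of 7 pericyte and smooth muscle markers passed (sums of 107 to 115 in wild-type and 105 to 114 in knockout cells). The part of these marker differences in the falls of Bmp4, Chrdl1 and Id4 was not tested, and in such RNA fewer cells of a type and less RNA per cell cannot be told apart.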

How the data were processed

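Total RNA of 6 samples (3 SLK wild-type, 3 SLK knockout) was biotin-labelled and measured on one-colour arrays. The authors deposited log2 values for 41345 probe sets, made with Affymetrix Expression Console 1.4.1.46 per the submitters' processing notes; the sources used here do not give the background correction, normalization, summarisation or log base. The highest value, 12.4, exceeds what a natural or decimal logarithm of a 16-bit signal could reach, so base 2 was assumed. Such values compress the fold changes of dim genes. Of the probe sets 23521 were annotated to 1 symbol, 1814 to several and 16010 were not listed; per symbol the single-symbol probe set with the highest mean was kept. Knockout was compared with wild-type, grouped by sample titles, with limma 3.58.1 in R 4.3.3 (lmFit, eBayes, two-sided, no covariate, no filter), adjusted by Benjamini-Hochberg over all 22180 genes at 0.05. The fit was tested on simulated data. Errors are limma's moderated SE and 95% intervals, and the number of arrays limits the precision. Alternatives were array weights, a trend of variance with intensity (also robust), a replicate block, means of probe sets, a test of every probe set, filters that dropped the dimmest 30% or 50% of genes, median centring, quantile normalization and leaving out each array. Of the 46 genes, values per array are given for those past the threshold, the 14 with the smallest p and the brightest of each role; of each other pathway list, calls and the 3 genes with the smallest p are named. The genes and lists were chosen with earlier results of these data known, so no list is independent evidence of its direction. Listed genes without a single-symbol probe set were not analysed here.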

Additional observations from a re-analysis of the deposited data

How the results depend on the processing

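The Slk difference stayed past the threshold under all 16 alternatives (log2 -1.14 to -1.07). The 14 genes with the smallest p kept their sign under every alternative in which they were tested; Bmp3 and Acvrl1 were not tested without the dimmest 50%. Over all genes, 97 calls became 206 and 341 without the dimmest 30% and 50% of genes, 441 with an intensity trend and 443 with the robust trend, 29 with every probe set tested by itself and 16 to 28 with an array left out. Of the 46 signalling genes the same 3 were called under 8 alternatives. None was called (limma) with every probe set tested by itself (5 at an unadjusted p under 0.05; adjusted p of 0.11 to 0.17 for the 3 genes) or with an array left out (0 in each case, with 4 to 7 at an unadjusted p under 0.05). Of the other pathway genes, 1 call became 2 with quantile normalization, 5 and 11 without the dimmest 30% and 50%, 15 with either trend, 3 with array weights, and 0 with every probe set by itself or with an array left out (29 to 36 at an unadjusted p under 0.05). Fewer or more genes tested and fewer arrays are built into the filters, the probe set test and the left-out arrays; the cause was otherwise not tested. The replicate numbers were shared by both genotypes, and no label says whether they pair the samples. Over all genes, deviations of same-numbered arrays correlated at 0.04, 0.02 and -0.07. Pairing limited to some genes might not show in these values. With the replicate block 6 genes were called in all, 0 of the 46 (7 at an unadjusted p under 0.05; limma, adjusted p of 0.15 for Bmp4 and Chrdl1 and 0.20 for Id4) and 0 of the other pathway genes (32 at an unadjusted p under 0.05).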
